A study of Homo sapiens with 8 samples.

Results

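The ATF4 axis and the amino acid synthesis genes it is known to control were followed through 24 h of hypoxia in SJRH30 cells, a human alveolar rhabdomyosarcoma line. The set held 10 genes out of 11963 named on the array: ATF4, DDIT3, CEBPB, TRIB3, ASNS, PHGDH, PSAT1, PSPH, SHMT2 and MTHFD2. They were found as the probe sets annotated with exactly 1 of these symbols and no other. That gave 13 probe sets out of 22215 tested, with 2 for PSPH, 3 for SHMT2 and 1 for each other gene. A further probe set that names PHGDH together with other genes was not used.

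Cells were collected after 6, 12 and 24 h in a chamber at 1% oxygen and, as 0 h, before hypoxia began, with 2 arrays at each of the 4 times. The labels call the arrays of a time biological replicates of the 1 line and name no genetic change or drug. Normoxic cells of the later times were not analysed here, so hypoxia and time in culture cannot be told apart. The labels give the cell type as muscle fibroblasts. Of 11 measured markers of myogenic and alveolar rhabdomyosarcoma cells, 8 lay above the array median on every array (MYOD1, MYOG, DES, CDH15, CHRNA1, CHRND, PAX3 and FGFR4), against 2 of 9 fibroblast markers (COL1A1 and COL3A1) and 0 of 12 markers of leukocytes, endothelium and epithelium.

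ATF4 is a bZIP transcription factor whose protein is made when stress kinases phosphorylate the initiation factor eIF2, a programme called the integrated stress response. It drives genes for amino acid synthesis, amino acid import and tRNA charging, and it works with partners of the C/EBP family. PHGDH, PSAT1 and PSPH encode the enzymes that make serine from a glycolytic intermediate, and SHMT2 and MTHFD2 then pass serine carbon to folate in the mitochondrion. ATF4 is regulated largely at translation, which an array of messenger RNA does not measure.

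The ATF4 arm fell and the serine arm mostly did not pass the test. ATF4, DDIT3, TRIB3 and ASNS were lower at 6, 12 and 24 h than at 0 h, and CEBPB was lower at 12 and 24 h. At 24 h ASNS transcripts stood at 48.3% of the 0 h level and ATF4 transcripts at 58.6%. Of the 5 serine and mitochondrial one-carbon genes, PSPH alone was called in the main fit, by 1 of its 2 probe sets. Some alternative fits, described at the end, also called CEBPB lower at 6 h and SHMT2, MTHFD2 and PSAT1 lower at 12 h. No member was called higher at any time.

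Promoter windows are shown for the 4 genes called lower at all 3 times in the main fit. CEBPB, which followed a like course but missed the threshold at 6 h, is not printed. Each window runs from 250 bases before to 50 bases after a RefSeq transcription start on GRCh38.p14, and windows were found for 8 of the 10 members. The other 2 are PSPH and SHMT2. Some genes have several starts, so the 8 had 14 windows, and 1 window is printed for each of the 4 genes. Capitals mark matches to any of 3 motifs searched on both strands. TGATGNAA is the core of the C/EBP-ATF composite element. ACGTG is a form of the hypoxia response element core, whose other form, GCGTG, was not searched and is not marked. CCAAT followed after 9 bases by CCACG is the endoplasmic reticulum (ER) stress response element, which was searched in this exact form only. The windows lie at chr7:97872359-97872658 on the minus strand for ASNS, chr22:39520309-39520608 on the plus strand for ATF4, chr12:57520465-57520764 on the minus strand for DDIT3 and chr20:381045-381344 on the plus strand for TRIB3.
ASNS: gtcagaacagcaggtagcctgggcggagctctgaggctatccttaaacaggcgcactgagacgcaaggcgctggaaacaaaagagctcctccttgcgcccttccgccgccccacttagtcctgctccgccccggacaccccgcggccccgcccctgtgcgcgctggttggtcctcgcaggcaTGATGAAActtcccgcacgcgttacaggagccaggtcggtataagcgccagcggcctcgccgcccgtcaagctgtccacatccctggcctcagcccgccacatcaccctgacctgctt
ATF4: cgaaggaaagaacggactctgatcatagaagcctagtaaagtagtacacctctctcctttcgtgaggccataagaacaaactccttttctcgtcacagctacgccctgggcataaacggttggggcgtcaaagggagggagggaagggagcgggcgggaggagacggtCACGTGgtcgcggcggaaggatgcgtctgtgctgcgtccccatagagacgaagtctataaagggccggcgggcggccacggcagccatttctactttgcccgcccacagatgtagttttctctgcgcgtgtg
DDIT3: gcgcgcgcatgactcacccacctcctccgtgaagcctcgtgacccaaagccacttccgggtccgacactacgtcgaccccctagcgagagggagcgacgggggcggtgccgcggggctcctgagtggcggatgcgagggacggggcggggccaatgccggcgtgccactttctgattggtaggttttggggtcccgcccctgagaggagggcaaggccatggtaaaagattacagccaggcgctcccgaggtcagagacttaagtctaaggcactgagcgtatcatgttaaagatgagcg
TRIB3: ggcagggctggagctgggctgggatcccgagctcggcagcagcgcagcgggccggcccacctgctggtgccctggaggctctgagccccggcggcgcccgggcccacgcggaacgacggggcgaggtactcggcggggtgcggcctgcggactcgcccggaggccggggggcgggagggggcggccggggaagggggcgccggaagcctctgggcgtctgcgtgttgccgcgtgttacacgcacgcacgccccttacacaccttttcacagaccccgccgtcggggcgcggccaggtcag

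The ASNS window held TGATGAAA at 68 to 61 bases before the start, on the strand of the gene. A second ASNS window held no match. The composite core was thus in 1 of the 14 member windows, and in 3.62% of all 35116 RefSeq windows. The ATF4 window held CACGTG at 82 to 77 bases before the start, which reads as ACGTG on both strands. MTHFD2 also held ACGTG, at 238 to 234 bases before its start on the opposite strand. So 3 of the 14 member windows had ACGTG, 2 of them overlapping windows of ATF4. ACGTG stands in 21.4% of all windows, and none of these counts covers GCGTG. The exact form of the ER stress element was in 0 of the 14, and in 0.0769% of all windows. The printed DDIT3 window holds ccaatgccggcgtgccact, which departs from that form only in its last base. Such near matches were not searched, counted or marked, so the count of 0 does not show that DDIT3 lacks the element. All matches named here are matches of letters within the windows searched and say nothing of binding.

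Values are log2 summaries that the authors made with RMA, so each is relative to the other transcripts of its array. Changes and their standard errors (SE) come from a limma fit over all probe sets, and a probe set was called at a Benjamini-Hochberg adjusted p under 0.05. The 3 comparisons with 0 h share the 2 arrays of 0 h. In such bulk RNA, fewer cells that express a gene and less of its RNA per cell cannot be told apart.

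ATF4 measured 11.15 and 11.18 at 0 h, 10.65 and 10.68 at 6 h, 10.46 and 10.42 at 12 h, and 10.33 and 10.46 at 24 h on the log2 scale. Every hypoxic array lay below both 0 h arrays, and the 12 h and 24 h arrays also lay below those of 6 h. ATF4 fell by 0.50 ± 0.07 (SE) on the log2 scale at 6 h (adjusted p = 0.00952), by 0.73 ± 0.07 at 12 h (adjusted p = 0.000829) and by 0.77 ± 0.07 at 24 h (adjusted p = 0.000479). The 24 h change was 1.71-fold lower, with a 95% interval of -0.92 to -0.62 on the log2 scale. The further differences between hypoxic times did not pass the test, at -0.22 for 12 h against 6 h (adjusted p = 0.137) and -0.04 for 24 h against 12 h (adjusted p = 0.776).

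DDIT3, which encodes the pro-apoptotic bZIP factor CHOP, measured 10.03 and 10.12 at 0 h, 9.46 and 9.42 at 6 h, 9.29 and 9.39 at 12 h, and 9.38 and 9.49 at 24 h. All 6 hypoxic arrays lay below the 0 h arrays, and among them the 24 h values overlapped those of 6 h and of 12 h. DDIT3 fell by 0.63 ± 0.07 at 6 h (adjusted p = 0.00501), by 0.74 ± 0.07 at 12 h (adjusted p = 0.00105) and by 0.64 ± 0.07 at 24 h (adjusted p = 0.00141). The difference between 24 h and 6 h was -0.01, with a 95% interval of -0.17 to 0.16.

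CEBPB, a C/EBP family partner of ATF4, measured 10.24 and 10.06 at 0 h, 9.80 and 9.83 at 6 h, 9.63 and 9.64 at 12 h, and 9.60 and 9.62 at 24 h. The groups did not overlap, and the 0 h replicates were the farthest apart of the 4 pairs. CEBPB fell by 0.51 ± 0.07 at 12 h (adjusted p = 0.0041) and by 0.54 ± 0.07 at 24 h (adjusted p = 0.00303). The 6 h difference of -0.34 ± 0.07 missed the threshold in the main fit (adjusted p = 0.0532). It passed in 5 of 18 alternative fits, described at the end.

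TRIB3 encodes a pseudokinase that is induced by ATF4 and CHOP and feeds back on them. It measured 8.47 and 8.42 at 0 h, 7.82 and 7.92 at 6 h, 7.55 and 7.49 at 12 h, and 7.54 and 7.57 at 24 h. The hypoxic arrays were all below the 0 h arrays, and the 12 h and 24 h values overlapped each other. TRIB3 fell by 0.57 ± 0.06 at 6 h (adjusted p = 0.00506), by 0.92 ± 0.06 at 12 h (adjusted p = 0.000235) and by 0.89 ± 0.06 at 24 h, when it was 1.85-fold lower (adjusted p = 0.000193). Its 24 h level differed from that of 6 h by -0.32 ± 0.06, which missed the threshold (adjusted p = 0.0592).

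ASNS encodes asparagine synthetase, which makes asparagine from aspartate and glutamine. It measured 9.15 and 9.19 at 0 h, 8.63 and 8.63 at 6 h, 8.25 and 8.19 at 12 h, and 8.06 and 8.18 at 24 h. The groups did not overlap at any pair of times. ASNS fell by 0.54 ± 0.06 at 6 h (adjusted p = 0.00684), by 0.95 ± 0.06 at 12 h (adjusted p = 0.000231) and by 1.05 ± 0.06 at 24 h (adjusted p = 0.000103). The 24 h change was 2.07-fold lower, with a 95% interval of -1.20 to -0.90 on the log2 scale, and ranked 12 among the falls of all 22215 probe sets.

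ASNS was also the 1 member called between 2 hypoxic times. At 24 h it stood below its 6 h level, with a log2 change of -0.51 ± 0.06 (SE, adjusted p = 0.0162), where 0.428% of all probe sets were called lower and 1.05% higher. The call was lost without 24 h replicate 1 (-0.45, adjusted p = 0.0743), without 6 h replicate 1 or 2 (adjusted p = 0.162 and 0.139) and without 0 h replicate 1 or 2 (adjusted p = 0.0501 each). Of the 13 member probe sets, 5 had an unadjusted p under 0.05 by limma between 24 h and 6 h, as did 3765 of all 22215 probe sets.

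**Figure D1:**
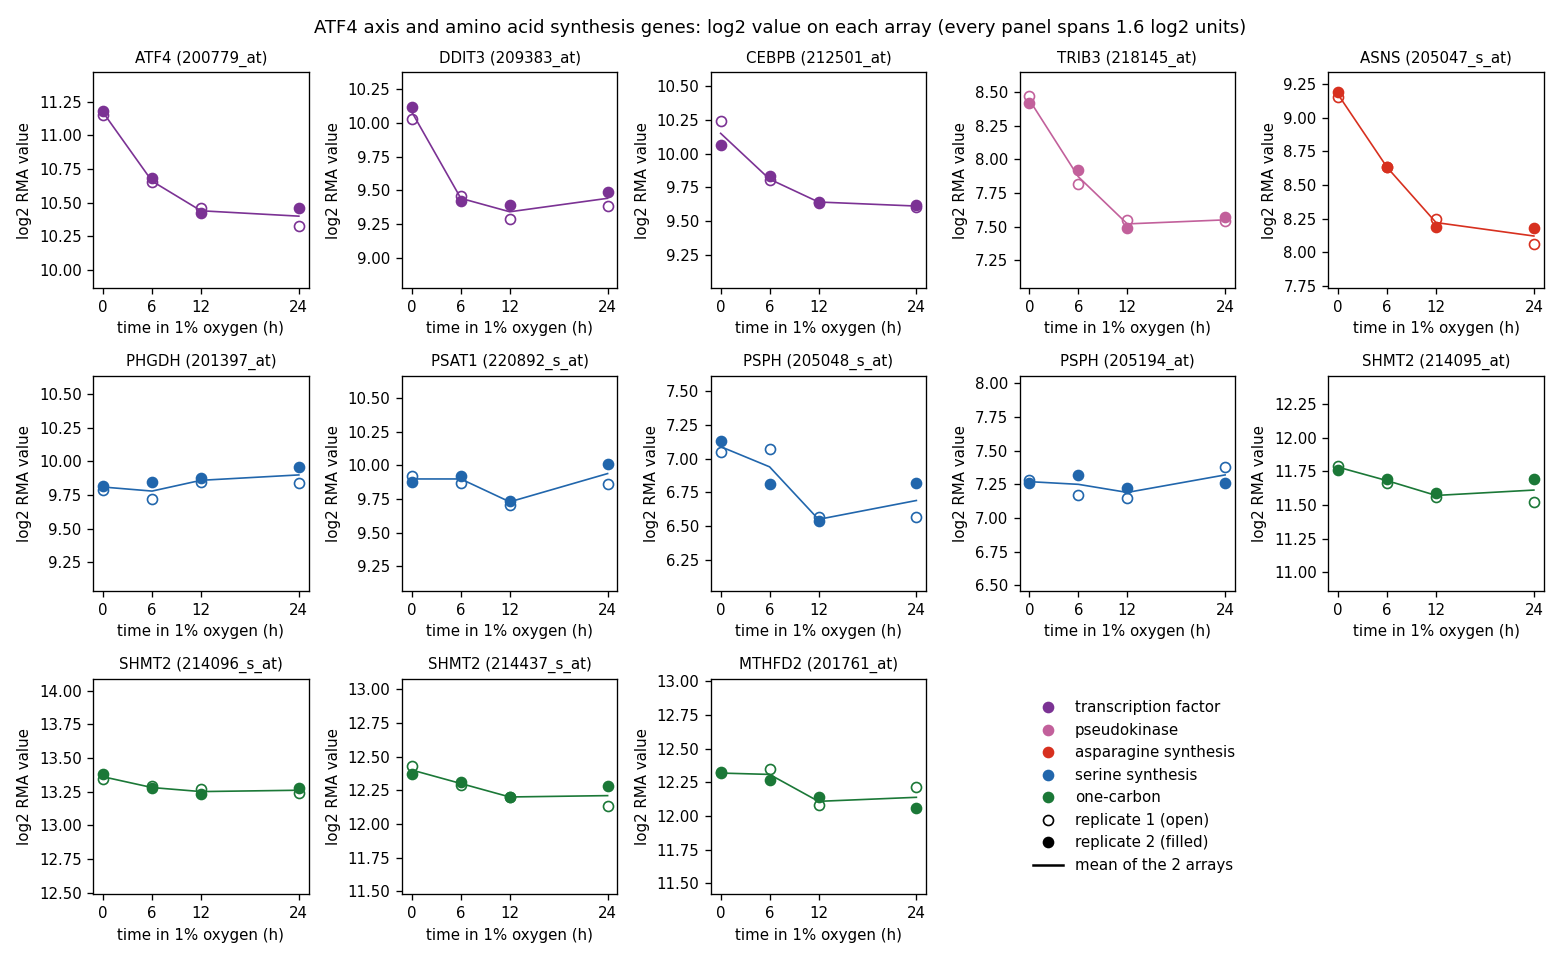
Log2 RMA value of each of the 13 member probe sets (y axis, each panel spanning 1.6 log2 units) against hours in 1% oxygen (x axis), with 1 point per array (open, replicate 1; filled, replicate 2) and a line through the mean of each time. ATF4, DDIT3, TRIB3 and ASNS step down by 6 h and stay below their 0 h arrays through 24 h, while the time means of PHGDH and PSAT1 span 0.21 log2 units or less.

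Serine synthesis begins with PHGDH, the dehydrogenase that commits a glycolytic intermediate to serine. PHGDH measured 9.79 and 9.82 at 0 h, 9.72 and 9.85 at 6 h, 9.85 and 9.88 at 12 h, and 9.84 and 9.96 at 24 h. The 6 h values spanned those of 0 h, and the 12 h and 24 h arrays lay slightly above them. Its difference from 0 h was 0.09 ± 0.07 at 24 h, with a 95% interval of -0.07 to 0.26 (adjusted p = 0.447), and -0.02 and 0.06 at 6 and 12 h (adjusted p = 0.92 and 0.608). A fall as large as that of ATF4 lies outside each of these intervals, whose lowest bound was -0.19 at 6 h.

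PSAT1 encodes the aminotransferase of the next step. It measured 9.92 and 9.88 at 0 h, 9.87 and 9.92 at 6 h, 9.71 and 9.74 at 12 h, and 9.86 and 10.01 at 24 h. The 12 h arrays were the lowest and did not overlap those of any other time. The 12 h difference from 0 h was -0.17 ± 0.07 (adjusted p = 0.132), against 0.04 ± 0.07 at 24 h (95% interval -0.12 to 0.20, adjusted p = 0.786). The difference of 0.21 between 24 h and 12 h had an adjusted p of 0.213.

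PSPH encodes the phosphatase that releases free serine, and its 2 probe sets disagreed. Probe set 205048_s_at measured 7.05 and 7.13 at 0 h, 7.07 and 6.81 at 6 h, 6.57 and 6.54 at 12 h, and 6.57 and 6.82 at 24 h. Its 12 h and 24 h arrays lay below both 0 h arrays, while the 6 h arrays straddled the lower of them. It fell by 0.54 ± 0.11 at 12 h (adjusted p = 0.0163) and by 0.40 ± 0.11 at 24 h (adjusted p = 0.0485), and its 6 h difference was -0.16 ± 0.11 (adjusted p = 0.537).

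Probe set 205194_at of PSPH measured 7.28 and 7.26 at 0 h, 7.17 and 7.32 at 6 h, 7.15 and 7.22 at 12 h, and 7.38 and 7.26 at 24 h. Its 12 h arrays lay below those of 0 h and its 6 h and 24 h arrays overlapped them, with differences from 0 h of -0.02, -0.08 and 0.05 at 6, 12 and 24 h (adjusted p = 0.932, 0.5 and 0.711). The changes of the 2 probe sets differed by -0.14, -0.46 and -0.45 at these times, a gap that was not tested. The first probe set, like the only probe sets of ASNS and PSAT1, carries the suffix for probes shared by several transcripts. PSPH also has a closely similar pseudogene, so which transcripts its first probe set read is uncertain. Its 24 h call was lost without 0 h replicate 1 or 2 (adjusted p = 0.151 and 0.227) and without 24 h replicate 1 (-0.27, adjusted p = 0.213). Its 12 h call was lost without 0 h replicate 1 or 2 (adjusted p = 0.077 and 0.108).

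SHMT2 encodes the mitochondrial hydroxymethyltransferase that splits serine into glycine and a one-carbon unit. Its probe set 214095_at measured 11.79 and 11.76 at 0 h, 11.66 and 11.69 at 6 h, 11.56 and 11.59 at 12 h, and 11.52 and 11.69 at 24 h. All 6 hypoxic arrays lay below both 0 h arrays. The differences from 0 h were -0.10, -0.20 and -0.17 at 6, 12 and 24 h (each ± 0.07 SE), and none passed the test (adjusted p = 0.526, 0.0902 and 0.156).

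The other 2 SHMT2 probe sets gave differences of similar size. Probe set 214437_s_at differed from 0 h by -0.09, -0.20 and -0.19 (adjusted p = 0.552, 0.0917 and 0.108), and 214096_s_at by -0.08, -0.11 and -0.10 (adjusted p = 0.542, 0.208 and 0.278). Between any pair of the 3 probe sets the change at a given time differed by 0.09 or less on the log2 scale. SHMT2 was thus below its 0 h level in all 9 estimates, without a call in the main fit. The estimates come from 1 gene and share the 2 arrays of 0 h, so they are not separate observations. The lowest bound of any 24 h interval was -0.35.

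MTHFD2 encodes the mitochondrial folate dehydrogenase and cyclohydrolase that acts after SHMT2. It measured 12.33 and 12.32 at 0 h, 12.35 and 12.27 at 6 h, 12.08 and 12.14 at 12 h, and 12.22 and 12.06 at 24 h. The 6 h arrays spanned those of 0 h, and the 12 h and 24 h arrays lay below them. The differences from 0 h were -0.01, -0.22 and -0.19 (each ± 0.07 SE), and none passed the test (adjusted p = 0.952, 0.0824 and 0.137).

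Counted together, 4 of the 13 member probe sets were called lower and 0 higher at 6 h, where 0.855% of all probe sets were called lower and 1.85% higher. At 12 h 6 were lower and 0 higher, where 9.85% of all probe sets were lower and 6.36% higher. At 24 h again 6 were lower and 0 higher, against 7.8% lower and 6.86% higher among all probe sets. At an unadjusted p under 0.05 by limma, 5, 10 and 9 member probe sets passed at 6, 12 and 24 h, all of them lower. Of all 22215 probe sets 3875, 6981 and 6366 passed at these times, in either direction. The median change of the 13 was -0.10, -0.22 and -0.19 at 6, 12 and 24 h, beside -0.02, 0.00 and -0.02 over all 22215 probe sets.

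The 6 h count rests on both arrays of 0 h and of 6 h. Without 0 h replicate 1 or 6 h replicate 2 it became 1, and without 0 h replicate 2 or 6 h replicate 1 it became 0. The highest adjusted p for ATF4 at 6 h was then 0.116, while its change stayed between -0.52 and -0.49. A moderated F-test over the 3 comparisons with 0 h called 6 of the 13 member probe sets (ATF4, DDIT3, CEBPB, TRIB3, ASNS and PSPH 205048_s_at), where it called 12.6% of all probe sets.

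Between neighbouring hypoxic times no member was called. From 6 h to 12 h the limma fit called 0 of the 13 member probe sets and 0.117% of all probe sets. An unadjusted p under 0.05 was found for 7 members and for 4647 of all 22215 probe sets. Among the 7 were ASNS at -0.41 (adjusted p = 0.0713), PSPH 205048_s_at at -0.38 (adjusted p = 0.13) and TRIB3 at -0.35 (adjusted p = 0.0816). From 12 h to 24 h the fit called 0 of the 13 and 0.144% of all probe sets. PSAT1 was the 1 member with an unadjusted p under 0.05, beside 3653 of all probe sets. In the earlier step the number of member probe sets called lower was 4 where the variance prior followed intensity, 2 and 4 without the dimmest 25% and 50% of probe sets, and 2 without 12 h replicate 1.

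**Figure D2:**
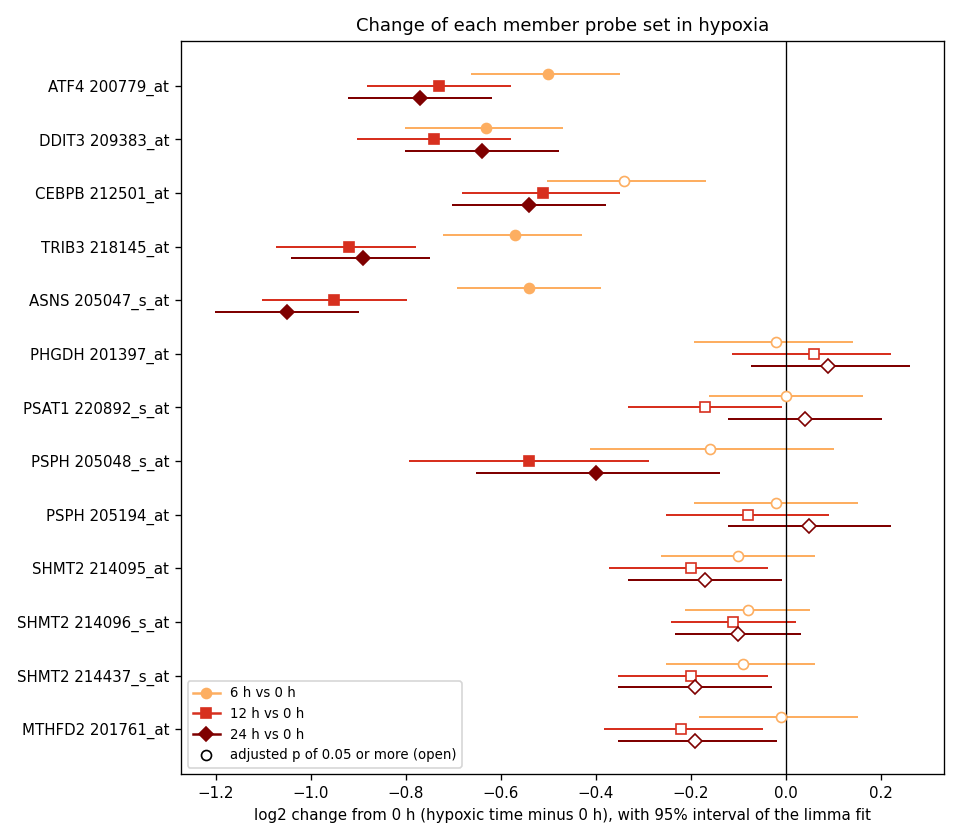
Change from 0 h (x axis, log2, hypoxic time minus 0 h) of each member probe set at 6, 12 and 24 h, with the 95% interval of the limma fit and filled symbols for an adjusted p under 0.05. The intervals of ATF4, DDIT3, CEBPB, TRIB3 and ASNS lie below 0 at all 3 times, and ASNS reaches -1.05 at 24 h. Those of PSPH 205048_s_at, MTHFD2 and SHMT2 214095_at and 214437_s_at lie below 0 at 12 and 24 h, and that of PSAT1 at 12 h. The PHGDH intervals include 0.

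**Figure D3:**
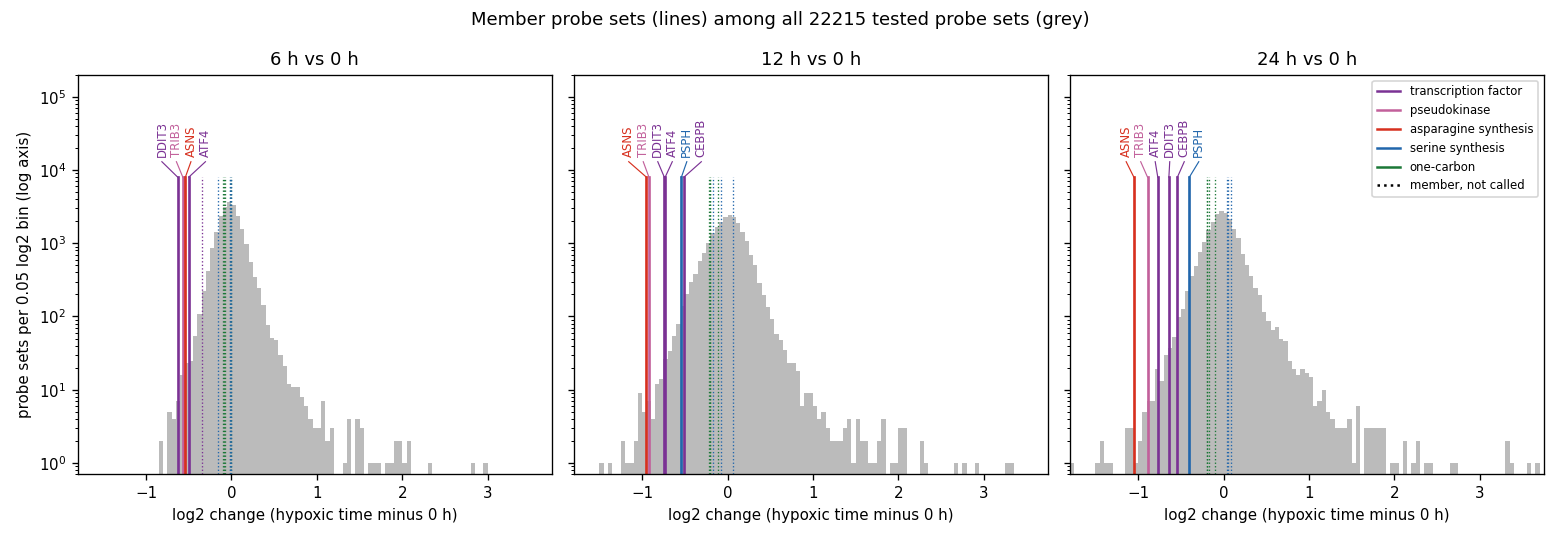
Histograms of the log2 change of all 22215 probe sets (grey, count per bin on a log axis) with the member probe sets as lines, solid and named where called. The called members sit on the lower side, with medians of -0.10, -0.22 and -0.19 for the 13 probe sets beside medians near 0 for all probe sets.

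The 24 h replicates of the members lay apart in 1 direction. Replicate 2 was above replicate 1 in 11 of 13 member probe sets, by a median of 0.12 on the log2 scale, while over all probe sets the median difference was 0.00 and 51.3% were above. The median distance between the 2 replicates of a time was 0.12 over the members at 24 h, against 0.04, 0.04 and 0.03 at 0, 6 and 12 h. Over all probe sets it was 0.06, 0.07, 0.08 and 0.10 at 0, 6, 12 and 24 h. The part of this in the 24 h results was not tested.

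Over the 8 arrays, ATF4 had a Pearson correlation of 0.99 with TRIB3 and with ASNS, 0.97 with CEBPB and 0.95 with DDIT3. It was 0.69 with MTHFD2, 0.30 with PSAT1, -0.42 with PHGDH, 0.84 and 0.01 with the 2 PSPH probe sets and 0.89 to 0.95 with those of SHMT2. The 5 genes outside the set most like ATF4 were TNFRSF12A (0.996), NFKB1 (0.995), TRIM16 (0.993), PSMC2 (0.992) and CCT5 (0.992). The arrays fall into 4 times that share a course, so these values describe likeness of pattern and carry no test.

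Other targets and partners of ATF4 went both ways. Counts for gene lists use the brightest probe set of each gene, for which 0.878% of 11963 genes were called lower and 1.95% higher at 6 h, 10.3% lower and 6.55% higher at 12 h, and 8.02% lower and 7.86% higher at 24 h. Of 18 measured targets and partners outside the set, 4 fell and 3 rose at 6 h, 8 fell and 4 rose at 12 h, and 9 fell and 3 rose at 24 h. The medians were -0.13, -0.21 and -0.23, beside -0.02, 0.00 and -0.01 over all genes. In a limma fit of 1 probe set per gene, 2300, 3994 and 3737 of the 11963 genes had an unadjusted p under 0.05, in either direction.

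Among those that fell, CEBPG, a C/EBP partner of ATF4, changed by -0.53, -1.03 and -0.85 at 6, 12 and 24 h (adjusted p = 0.0213, 0.000541 and 0.000912). Those that rose were led by DDIT4, an mTORC1 inhibitor also known as a hypoxia-inducible gene, at 2.34, 2.27 and 2.26 (adjusted p = 8.32e-06, 6.1e-06 and 5.06e-06). DDIT4 measured 10.78 and 10.96 in the 24 h arrays, against 8.55 and 8.66 in the 0 h arrays. The lipoprotein receptor gene VLDLR rose by 1.39, 1.67 and 1.58, and STC2, which encodes a secreted glycoprotein, by 0.84, 0.82 and 0.81. KLHL24 was the fourth gene higher at 12 h.

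Upstream of ATF4 lie the eIF2 kinases, eIF2 itself, its exchange factor eIF2B and the phosphatase subunits that reverse the signal. The list of these genes also held regulators of the kinases, and the kinase gene EIF2AK4 was listed but not measured. Of the 15 listed genes measured, 1 fell at 6 h and 6 at each of 12 and 24 h, while 0 rose at any time. At an unadjusted p under 0.05 by limma, 0, 0 and 1 were higher and 4, 7 and 6 lower at these times. The medians were -0.10, -0.17 and -0.14. The gene that fell at all 3 times was PPP1R15A, which encodes the stress-inducible phosphatase subunit GADD34 and is itself a target of ATF4. It measured 7.04 and 7.07 in the 24 h arrays, against 7.68 and 7.66 in the 0 h arrays, a change of -0.61 (adjusted p = 0.00065).

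The others called at 12 and 24 h were the eIF2 alpha gene EIF2S1 (-0.27 at 24 h, adjusted p = 0.0193) and the eIF2B subunit genes EIF2B1, EIF2B2 (-0.32, adjusted p = 0.0146), EIF2B3 and EIF2B4 (-0.29, adjusted p = 0.0188). The 3 kinase genes measured, EIF2AK1, EIF2AK2 and EIF2AK3, were not called, with differences of 0.04, -0.15 and 0.06 at 24 h (adjusted p = 0.814, 0.182 and 0.677). EIF2S2 was not called by its brightest probe set, while another, 208725_at, was called higher at 24 h (0.32, adjusted p = 0.0182).

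The list of bZIP and Tribbles relatives of ATF4, CEBPB, DDIT3 and TRIB3 had 16 measured genes. It included CEBPZ, which shares the C/EBP name but has no bZIP domain. Of these 3 fell and 1 rose at 6 h, 5 fell and 1 rose at 12 h, and 4 fell and 2 rose at 24 h, with medians of -0.11, -0.07 and -0.08. ATF3, a stress-induced factor downstream of ATF4, measured 9.31 and 9.30 in the 24 h arrays, against 9.84 and 9.81 in the 0 h arrays, a change of -0.52 (adjusted p = 0.00172). ATF5, whose translation is also set by eIF2, fell by 0.76 at 24 h (adjusted p = 0.000535). In the other direction NFIL3, a bZIP repressor, rose by 0.68, 0.81 and 0.85 (adjusted p = 0.00114, 0.000251 and 0.000155). ATF3, ATF5 and CEBPG stand in the list of ATF4 targets and partners too.

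Genes that charge tRNA were called lower from 12 h on. Of 16 cytosolic aminoacyl-tRNA synthetase genes, 0 were called at 6 h, 8 fell at 12 h and 8 fell at 24 h, and 0 rose. At an unadjusted p under 0.05 by limma, 4, 13 and 12 were lower and 0 higher at 6, 12 and 24 h. The medians were -0.11, -0.26 and -0.22. The tyrosyl synthetase gene YARS1 fell by 0.57 at 24 h (adjusted p = 0.00303), with 9.72 and 9.91 in the 24 h arrays, against 10.39 and 10.39 in the 0 h arrays. The glycyl synthetase gene GARS1 fell by 0.45 (adjusted p = 0.00457), VARS1 by 0.40 (adjusted p = 0.0473) and RARS1 by 0.26 (adjusted p = 0.0281).

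The few amino acid transporter genes called were all lower, where 10.3% of all genes were called lower at 12 h and 8.02% at 24 h. Of 15 genes, 0 were called at 6 h, 2 fell at 12 h and 4 fell at 24 h, and 0 rose, with medians of -0.04, -0.01 and -0.13. At an unadjusted p under 0.05 by limma, 1, 2 and 0 were higher and 1, 5 and 5 lower at these times. SLC7A11, the cystine importer and an ATF4 target, measured 8.06 and 7.88 in the 24 h arrays, against 8.64 and 8.54 in the 0 h arrays, a change of -0.62 (adjusted p = 0.00529). The neutral amino acid carriers SLC38A1, SLC38A2 and SLC1A5 fell by 0.35, 0.31 and 0.29 at 24 h (adjusted p = 0.00737, 0.0146 and 0.0474).

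The remaining serine, glycine and one-carbon genes had medians near 0. Of 13 measured, 0 were called at 6 h, 2 fell at 12 h and 1 rose at 24 h, with medians of 0.04, 0.05 and -0.01. At an unadjusted p under 0.05 by limma, 1, 1 and 3 were higher and 0, 3 and 1 lower. The gene that rose was SFXN1, a mitochondrial serine carrier, with 9.31 and 9.36 in the 24 h arrays, against 8.95 and 8.97 in the 0 h arrays (0.37, adjusted p = 0.0083). Those lower at 12 h were the mitochondrial folate carrier gene SLC25A32 (-0.30, adjusted p = 0.0356) and MTHFD2L, a relative of MTHFD2 (-0.38, adjusted p = 0.0239).

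Other amino acid synthesis genes changed in both directions. Of 17, 1 rose at 6 h, 2 rose and 4 fell at 12 h, and 3 rose and 3 fell at 24 h, with medians of 0.00, -0.08 and 0.02. BCAT1, the cytosolic branched-chain aminotransferase, rose by 0.41, 0.54 and 0.67 (adjusted p = 0.0157, 0.002 and 0.000612). It measured 10.28 and 10.34 in the 24 h arrays, against 9.68 and 9.61 in the 0 h arrays. PCK2, the mitochondrial phosphoenolpyruvate carboxykinase, rose by 0.36 at 24 h (adjusted p = 0.00569) and CBS, which condenses serine with homocysteine, by 0.33 (adjusted p = 0.00819). CTH, the next enzyme after CBS, fell by 0.37 (adjusted p = 0.0425).

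Genes of the ER stress sensors and chaperones, which belong to the unfolded protein response, were mostly not called. Of 14, 1 rose and 0 fell at 6 h, 1 rose and 3 fell at 12 h, and 2 rose and 1 fell at 24 h, with medians of -0.07, -0.09 and -0.06. At an unadjusted p under 0.05 by limma, 1, 2 and 2 were higher and 2, 5 and 1 lower at these times. EDEM1, a lectin of ER-associated degradation, rose by 0.29, 0.39 and 0.29 (adjusted p = 0.0465, 0.00557 and 0.0157). HYOU1, an ER chaperone also known as hypoxia up-regulated 1, fell by 0.38 at 24 h (adjusted p = 0.00873) and HSP90B1 rose by 0.27 (adjusted p = 0.0381). HERPUD1 fell by 0.28 at 12 h (adjusted p = 0.0229) and so did HSPA5, the chaperone BiP, by 0.22 (adjusted p = 0.0311), whose 24 h difference was -0.08 (adjusted p = 0.404).

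**Figure D4:**
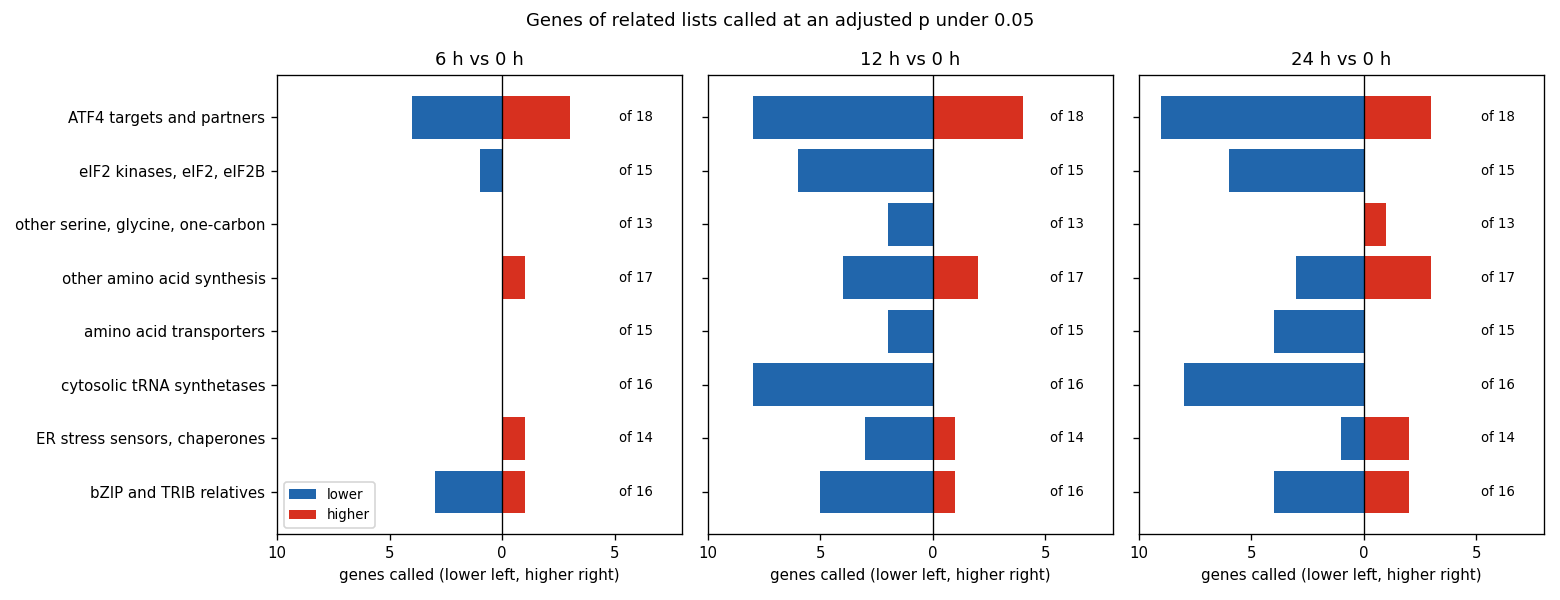
Number of genes called lower (blue, to the left) and higher (red, to the right) at 6, 12 and 24 h in 8 gene lists around the ATF4 axis, with the number measured at the right of each bar. Lower calls lead among ATF4 targets and partners (9 lower and 3 higher at 24 h), eIF2 genes (6 and 0) and tRNA synthetases (8 and 0), and are fewer among serine, glycine and one-carbon genes (0 and 1).

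Across the 8 arrays, medians lay between 6.69 and 6.73, and the interquartile range was 3.63 and 3.68 on the 12 h arrays and 3.77 to 3.81 on the others. The mean of 24 poly-A spike-in control probe sets was higher than at 0 h by 0.47, 0.43 and 0.65 at 6, 12 and 24 h, and its part in the results was not tested. Of the marker lists of other cell types, fibroblasts had 1 gene called higher at 6 h and 1 at 12 h and epithelium 1 at 24 h. The summed log2 level of the 9 fibroblast markers was 58.77 to 59.23 at 0 h, 59.08 to 59.27 at 6 h, 59.60 to 59.78 at 12 h and 59.50 to 59.81 at 24 h. For the 5 epithelial markers it was 27.14 to 27.27 at 24 h, against 26.64 to 26.97 at 0 h. The 4 endothelial markers, of which limma called 0, summed to 20.33 to 20.53 at 12 h and 20.26 to 20.64 at 24 h, against 19.72 to 19.89 at 0 h. The part of any of these lists in the results was not tested. The 3′ minus 5′ difference stayed between -0.10 and -0.05 for GAPDH and between 0.02 and 0.11 for ACTB. Without the 12 h arrays, a choice made after the data were seen, the member counts were 4 lower at 6 h and 6 lower at 24 h.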

How the data were processed

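Expression was measured on 8 Affymetrix 3′ arrays of SJRH30 cells, 2 at each of 0, 6, 12 and 24 h of 1% oxygen, grouped by the time in the sample titles. Per the submitters' processing notes the deposited log2 values are RMA summaries, 1 per probe set, and the RMA version is not given in the sources used here. RMA equalises the arrays, so changes are relative. Depth has no meaning for an array, and precision is limited by how many arrays there are.

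The values ran from 2.72 to 14.48 over 22277 probe sets, of which 62 controls were left out and 22215 tested. Names came from the platform annotation of 2016, in which 19070 probe sets have 1 gene symbol, 1043 several and 2164 are not listed. Symbols were updated through Entrez identifiers with RefSeq (GRCh38.p14), of which 19058 matched. A linear model with 1 mean per time was fitted over the 8 arrays (lmFit and eBayes of limma 3.58.1, R 4.3.3), with 4 residual and 3.7 prior degrees of freedom. Tests were two-sided over 6 comparisons of times, with Benjamini-Hochberg adjustment over all probe sets within each comparison. Intervals are 95% intervals of that fit. The procedure was tested on simulated data.

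Members and gene lists were chosen with earlier results of these data known. Every member probe set is described, with up to 4 called genes of each list by the size of their 24 h change. KLHL24, EIF2B1, EIF2B3, EIF2S2, HSPA5 and the 3 eIF2 kinase genes were named beyond this rule after their values were seen. CEBPZ and EIF2AK4 were named only to describe what the lists hold.

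Same-numbered replicates were checked for pairing by the correlation of their deviations from the time means, which ran from -0.135 to 0.084, so the numbers were not taken to pair the samples. Alternatives were 1 probe set per gene, an intensity trend, filters on the dimmest 25% and 50% of probe sets, median centring, further quantile normalization, the replicate number as a block, only the 2 times compared, leaving out each array and an adjusted p under 0.01.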

Additional observations from a re-analysis of the deposited data

Results flagged for a closer look

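The change of ASNS from 0 h differed between 2 of the hypoxic times. Its log2 change was -1.05 at 24 h, against -0.54 at 6 h, and the test of the difference itself, which equals 24 h against 6 h, gave -0.51 (limma adjusted p = 0.0162). Both 24 h arrays (8.06 and 8.18) lay below both 6 h arrays (8.63 and 8.63). No cause was tested. Groups of 2 arrays are too small for a check of outlying arrays.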

How the results depend on the processing

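No member change reversed its sign among calls under any alternative, and the count of members called higher stayed at 0 in each. ATF4, ASNS, DDIT3, TRIB3 and CEBPB were called lower under all 17 alternatives at 12 h and all 18 at 24 h. For all probe sets called at 6 h (600), the count was 1911 with an intensity trend, 1051 and 2078 without the dimmest 25% and 50%, 170 at an adjusted p under 0.01 and 84 to 650 when 1 array was left out. At 12 h (3602) it was 2202 with 1 probe set per gene (fewer probe sets tested), 2294 with only the 2 times compared, 1161 at an adjusted p under 0.01 and 857 to 3949 leaving out 1 array. At 24 h (3257) it was 2123 with 1 probe set per gene, 1228 at an adjusted p under 0.01 and 951 to 3516 leaving out 1 array. For 24 h against 6 h (328) it was 1568 with the trend, 768 and 1537 without the dimmest 25% and 50%, 171 with only those times, 62 at an adjusted p under 0.01 and 19 to 452 leaving out 1 array. Members called lower at 6 h (4) ranged from 0 to 4 leaving out 1 array. At 12 h (6) they were 11 with the trend, 10 without the dimmest 50%, and 5 to 9 leaving out 1 array. At 24 h (6) they were 10 with the trend and 5 to 8 leaving out 1 array. For 24 h against 6 h (1) they were 2 with 1 probe set per gene, 4 with the trend, 2 and 3 without the dimmest 25% and 50%, 0 at an adjusted p under 0.01 and 0 to 1 leaving out 1 array. The replicate block, which pairs arrays by a number that did not prove to pair them, gave 334 probe sets at 6 h and 129 for 24 h against 6 h, moved the counts at 12 and 24 h against 0 h by less than 1.5 times and lost among member calls PSPH 205048_s_at at 24 h (adjusted p = 0.0783). For 12 h against 6 h (26) the count was 1241 with the trend, 236 and 1231 without the dimmest 25% and 50%, 0 with the replicate block, with only the 2 times compared and at an adjusted p under 0.01, and 0 to 1117 leaving out 1 array. For 24 h against 12 h (32) it was 711, 185 and 709, then 0 under the same 3 choices, 62 with median centring, 74 with further quantile normalization and 0 to 302 leaving out 1 array. Where a lone array was left at a time it was assumed to vary like the others. Calls over all probe sets also rose with the trend, to 5044 at 12 h and 4671 at 24 h. Without the dimmest 50% they were 4656 at 12 h. At 12 and 24 h against 0 h, the member probe sets that these settings added were those of SHMT2 and MTHFD2 and, at 12 h, PSAT1. At 6 h CEBPB was added, and the count of members called lower was 5. This held with the trend, without the dimmest 25% or 50%, with 1 probe set per gene and with further quantile normalization. For 24 h against 6 h, the trend added ATF4, TRIB3 and CEBPB. Apart from the number of probe sets or arrays in a fit, the cause was not tested.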
